A study of Mus musculus with 30 samples.

Results

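The genes described here encode the nuclear subunits of the respiratory chain and of the ATP synthase. They were taken by symbol: every Ndufa, Ndufb, Ndufs, Ndufc or Ndufv gene with a number, Sdha to Sdhd, the Uqcr genes, Cyc1, the Cox4 to Cox8 genes and the Atp5 genes, with pseudogene symbols left out and, in the cell line, protein coding genes only. This gave 87 of the 20764 genes listed for hearts and 86 of the 54532 listed for HL-1 cells, and 83 were shared by Ensembl identifier. By symbol, the heart members comprised 39 of complex I, 4 of complex II, 9 of complex III, 18 of complex IV and 17 of complex V, and the HL-1 members 37, 4, 9, 18 and 18. Ndufa4 and Ndufa4l2 are counted with complex I by their symbols, although the Ndufa4 protein is now placed in complex IV.

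The hearts came from female C57BL6 mice, by the study's methods of mixed J and N substrains, with 1 library per mouse and 3 mice per group. Young mice were 2 months old, old mice 12 months old, and the old mice drank either water alone (old H2O) or water with nicotinamide riboside (NR, a precursor of NAD+) at 3 g/l (old NR). Each of these was sampled at ZT10, late in the light phase, and at ZT22, late in the dark phase. HL-1 is a cell line grown from an atrial tumor of a mouse, and its 12 libraries, from 3 wells per group, fell into 4 groups. These were untreated cells, cells given FK866 (an inhibitor of the NAD+ salvage enzyme NAMPT), cells given NR on top of FK866, and cells that also received the SIRT1 inhibitor Ex527. All groups come from 1 line, so the wells measure the spread between cultures of that line.

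Respiratory complexes I and II take electrons from NADH and succinate, complex III passes them on through cytochrome c, and complex IV gives them to oxygen, while complexes I, III and IV pump the protons that drive the ATP synthase (complex V). Each complex except complex II holds protein encoded in mitochondrial DNA as well as protein encoded in the nucleus, with most of its subunits nuclear. The heart, which contracts without rest, is among the tissues richest in both. Several subunits of complex IV exist as a ubiquitous isoform and a muscle isoform from separate genes.

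Hearts held between 3922137 and 7562215 counts per library and HL-1 libraries between 21337922 and 35000109. Values are given as CPM (counts scaled to the library size after TMM normalization) in each library, and levels are compared between genes only per kilobase. In hearts all 8 cardiomyocyte markers were present, with a summed level of 5190 to 7930 CPM. In the HL-1 libraries the same list summed to between 0.262 and 4.36 CPM, with 4 of its 8 genes at 0 in all untreated libraries, the 5 atrial markers summed to at most 1.7 CPM, and the 5 fibroblast markers summed to between 650 and 913 CPM (650 to 667 with FK866 and 839 to 893 untreated). That fibroblast sum rested on Col1a1 (466 to 763 CPM) and Dcn (97.5 to 183 CPM). Col1a2 reached at most 32.1 CPM and Pdgfra 32.9 CPM, and Tcf21 was at 0 in every HL-1 library. The cardiomyocyte identity given in the labels was not visible at the level of the cardiomyocyte and atrial markers, and the line is called HL-1 below. In tissue, fewer cells of a type and less RNA per cell cannot be told apart.

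Hearts expressed the muscle isoforms of complex IV above their ubiquitous partners, whereas the HL-1 libraries held almost none of them. On the scale of CPM per kilobase of the principal transcript, Cox6a2 made up 65.7% ± 2.25 (SD, n = 18 hearts) of the Cox6a pair in hearts, and between 0.194% and 0.854% of the pair's FPKM in the 12 HL-1 libraries. Its share was 69.7% in the heart with the lowest library total and 62.1% in that with the highest, both old H2O at ZT22. The SD over hearts therefore covers libraries of unlike depth, as it does for the other isoform sets. Cox8b made up a median of 68.7% of the Cox8 genes in hearts (67.2% to 71.9%) and at most 0.0253% in HL-1. Cox7a1 made up 51.7% ± 0.927 of the Cox7a genes in hearts, beside 33.9% ± 0.433 for Cox7a2, and a median of 3.57% in HL-1, where Cox7a2 took 62.5% and Cox7a2l 33.6%. The order of the isoforms thus turned round between tissue and line for each of these sets. Heart shares use the length of the principal transcript and HL-1 shares the gene length behind the FPKM, which differ for some genes. For Cox7a2 they are 659 and 944 bases.

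The other isoform sets kept 1 leading gene in both sources. Cox4i1 held 90.5% ± 1.62 of the Cox4i pair in hearts, and its partner Cox4i2, an isoform of lung and of low oxygen, held 9.45%, against at most 0.152% in HL-1. Ndufa4 held 87.1% ± 1.75 of the pair with Ndufa4l2 in hearts and at least 99.0% in HL-1. Among the Atp5g genes, which encode the same c-ring subunit of the ATP synthase, Atp5g3 held 85.7% ± 0.862 in hearts and a median of 49.9% in HL-1, where Atp5g2 followed with 37.5%. The lengths used were 723 bases for Atp5g3 and 731 for Atp5g2 in hearts, and 2181 and 1675 bases in HL-1. The percentages of Atp5g3 are therefore not on the same scale, and the part of the lengths in their difference was not tested. Atp5g2 is uncertain in hearts, since 87% of its 72-base words occur in other genes and reads that map to several places were removed there.

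Members at or near 0 account for what could not be tested. In hearts 84 of 87 members had an average count over 5, and Cox6c2, Cox7b2 and Ndufa11b did not. In HL-1, 80 of 86 passed the filter, and Cox4i2, Cox6b2, Cox7b2, Cox8b, Cox8c and a second gene named Atp5o, each at 5 counts or fewer in every library, did not. Cox7b2, Cox8c and the second Atp5o were at 0 in all 12 HL-1 libraries. Ndufs6b, Cox6c2 and Ndufa11b are annotated as processed pseudogenes in GENCODE, and 17 heart members shared over 10% of their 72-base words with another gene, among them Atp5l (64.3%), Cox7c (50.8%), Atp5h (37.3%) and Ndufb4 (35.4%). Their values are uncertain, because reads of near-identical copies are dropped or split.

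In HL-1 cells the nuclear subunits were lower with FK866 and NR than in untreated cells, across all 5 complexes. At an adjusted p-value under 0.05 (quasi-likelihood test of edgeR, adjusted by Benjamini and Hochberg over 14760 genes), 65 of the 80 members tested fell and 0 rose, while 23.9% of all genes were called in this comparison and 12.8% were called lower. DESeq2 called 66 members. The DESeq2 counts for HL-1, here and below, are given without its share of all genes, and the percentages beside them are those of edgeR. The median log2 fold change of the members was -0.35, against 0.00 for all genes tested, and the fallen members lay between -0.61 and -0.20. The 3 libraries of each group did not overlap for 71 members, all lower with FK866 and NR, while 23.3% of all genes were lower without overlap.

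**Figure D1:**
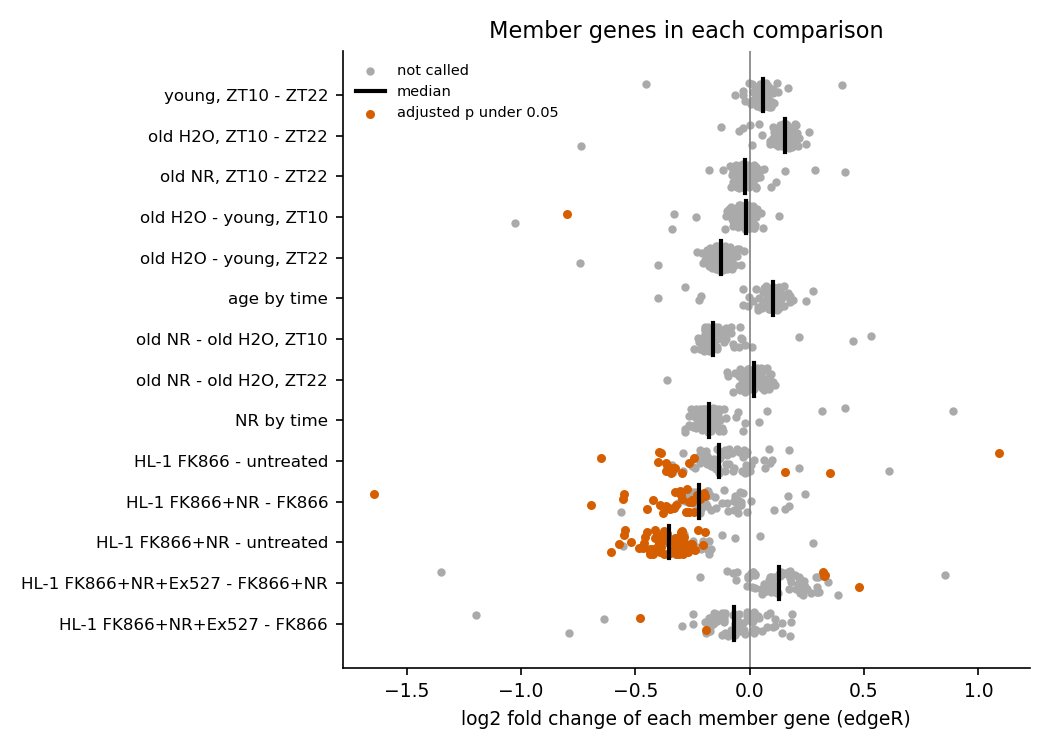
Log2 fold change of every tested member gene (points, edgeR) in the 9 heart and 5 HL-1 comparisons, with the median as a black bar and members at an adjusted p-value under 0.05 in orange. The heart medians lie between -0.18 and 0.15 with 1 member called in all, and the HL-1 comparison of FK866 and NR with untreated cells has its median at -0.35 with 65 members called.

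The calls depended on single libraries. Without untreated library 3 the count of fallen members was 7, and without FK866 and NR library 1 it was 5, with 500 and 371 genes called in all instead of 3532. The median stayed between -0.39 and -0.29 over every library left out, and between 77 and 79 of the 80 members had a negative estimate.

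Summed by complex, the untreated libraries stood above the libraries with FK866 and NR without overlap. The complex I members summed to 2676, 2749 and 3056 CPM untreated and to 2144, 2365 and 2327 CPM with FK866 and NR. Complex V members summed to 5031, 5147 and 5622 CPM untreated and to 4059, 4417 and 4411 CPM with both agents. FK866 alone, at 2635, 2914 and 2375 CPM for complex I, overlapped the untreated libraries and lay above those with FK866 and NR. With Ex527 added the complex I sum was 2582, 2417 and 2595 CPM, above all libraries with FK866 and NR and below all untreated ones.

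**Figure D2:**
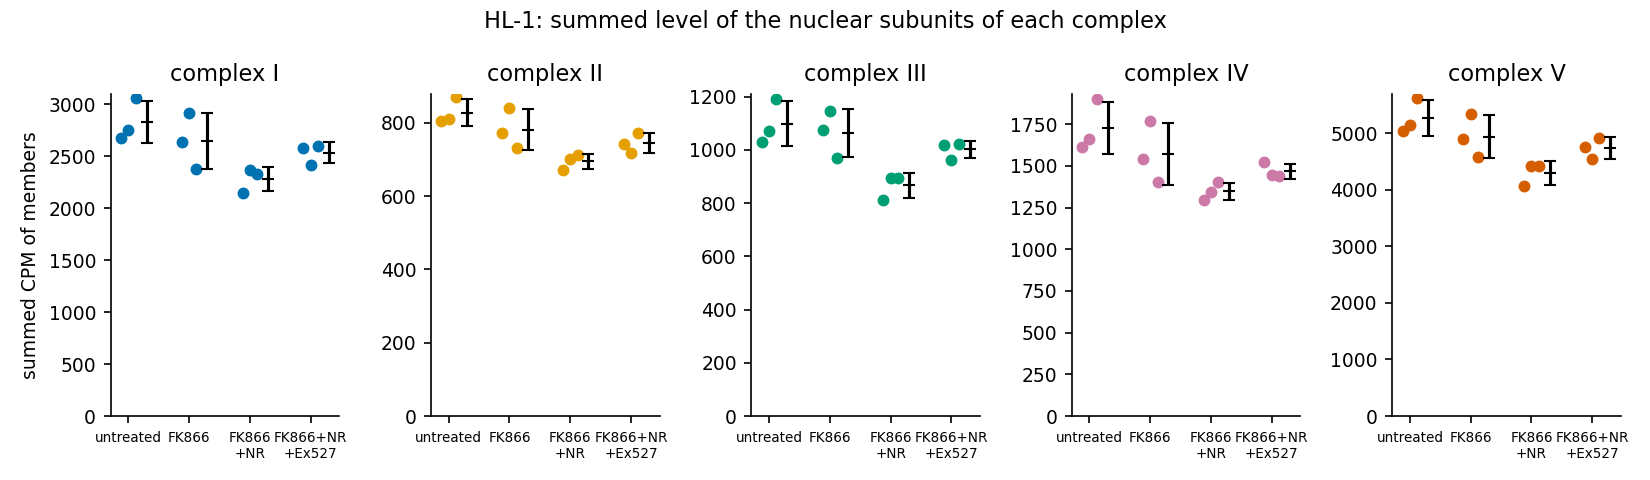
Summed CPM of the nuclear members of each complex (vertical axis, from 0) in the 3 libraries of each HL-1 group (points), with mean and SD in black. In every panel the 3 libraries with FK866 and NR lie below the 3 untreated ones, as in complex III with 812 to 895 CPM against 1031 to 1193 CPM.

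In complex I, 26 of 37 members fell with FK866 and NR. Ndufa11, an accessory subunit in the membrane arm, measured 28.6, 37.1 and 41.5 CPM in untreated cells and 21.6, 23.1 and 25.6 CPM with FK866 and NR. Every library with both agents lay below every untreated one, and at a log2 fold change of -0.61 (SE 0.13, adjusted p = 0.0098, edgeR) it was the member that also passed the stricter rule of the study, an adjusted p-value under 0.01 and a change over 1.5-fold, which 0.901% of all genes passed. That call was lost without any 1 of 5 of the 6 libraries compared, untreated library 1 being the exception, and the change then lay between -0.74 and -0.49 over all 6. Ndufv1, which binds NADH, measured 201, 199 and 223 CPM untreated and 156, 171 and 160 CPM with both agents (-0.35, SE 0.08, adjusted p = 0.0106). Ndufa4 fell by 0.40 on the log2 scale (adjusted p = 0.0136).

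Ndufs1, the largest core subunit of complex I with iron-sulfur clusters, did not pass in this comparison. It measured 207, 204 and 199 CPM untreated and 192, 194 and 199 CPM with FK866 and NR, groups that met at 199 CPM (-0.06, SE 0.05, adjusted p = 0.398). Other complex I members that did not pass included Ndufs3, Ndufs5, Ndufa3, Ndufa6, Ndufa10, Ndufa12, Ndufb2, Ndufb3 and Ndufa4l2. Of these, Ndufa12 spread from 15.0 to 36.8 CPM among the untreated libraries, and Ndufb2 had a positive estimate (0.28, adjusted p = 0.179).

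All 4 complex II members fell. Sdha, the flavoprotein that oxidizes succinate, measured 375, 359 and 360 CPM untreated and 311, 321 and 319 CPM with FK866 and NR, with a log2 fold change of -0.20 (SE 0.05, adjusted p = 0.0202). Sdhb, its iron-sulfur partner, fell by 0.31 (adjusted p = 0.0202). The untreated and treated libraries did not overlap for any of the 4.

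In complex III, 8 of 9 members fell, and Uqcrb, with an adjusted p-value of 0.169, did not pass. Uqcrq, a small subunit, measured 132, 133 and 154 CPM untreated and 85.1, 96.3 and 101 CPM with both agents (-0.57, SE 0.11, adjusted p = 0.00925). The gap between the groups exceeded the spread within either. Cyc1, which is cytochrome c1, fell by 0.45 (SE 0.08, adjusted p = 0.00891), the Rieske protein gene Uqcrfs1 by 0.32 (adjusted p = 0.0200) and the core protein gene Uqcrc1 by 0.24 (adjusted p = 0.0197).

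In complex IV, 11 of 13 members fell, while Cox5b (adjusted p = 0.0603) and Cox6a2 (adjusted p = 0.243) did not pass. Cox4i1 measured 265, 275 and 335 CPM untreated and 212, 232 and 237 CPM with both agents (-0.36, SE 0.10, adjusted p = 0.0211). Cox7a2 measured 106, 105 and 126 CPM untreated and 72.9, 80.6 and 77.1 CPM with both agents (-0.55, SE 0.11, adjusted p = 0.00942). In both genes the lowest untreated library was above the highest treated one. Cox5a fell by 0.30 (adjusted p = 0.0286).

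In complex V, 16 of 17 members fell, and Atp5s, a coupling factor, did not pass (-0.12, adjusted p = 0.376). Atp5b, the catalytic beta subunit and the member with the most counts in HL-1, measured 2229, 2290 and 2416 CPM untreated and 1857, 1980 and 1987 CPM with FK866 and NR (-0.25, SE 0.06, adjusted p = 0.0115). The alpha subunit gene Atp5a1 moved by nearly the same amount (-0.26, adjusted p = 0.0125). Atp5k, which encodes subunit e, was at 22.9, 18.8 and 22.5 CPM untreated and 14.1, 17.3 and 15.9 CPM with both agents (-0.44, SE 0.12, adjusted p = 0.0214).

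Other gene lists moved the same way in this comparison. Of the TCA cycle enzymes 12 of 18 fell (median log2 fold change -0.18), of the mitochondrial ribosomal proteins 41 of 77 (-0.27), of the cytosolic ribosomal proteins 60 of 84 (-0.34) and of the assembly factors of the complexes 15 of 48 with 1 that rose (-0.22). The regulators of mitochondrial biogenesis did not, with 0 lower and 1 higher (Sirt1, 0.28, adjusted p = 0.0480) of 18. Nrf1 (-0.01, adjusted p = 0.936), Gabpa (0.22, adjusted p = 0.0938), Esrra (-0.20, adjusted p = 0.0658) and Tfam (-0.16, adjusted p = 0.0673) did not pass. Of the 13 mitochondrially encoded mRNAs, 8 rose and 1 fell, and together they took 1.19% to 1.43% of counts untreated and 2.03% to 2.58% with FK866 and NR.

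The members' share of counts moved with that of the cytosolic ribosomal proteins also within groups. In untreated libraries 1, 2 and 3 the members held 1.09%, 1.14% and 1.26% of counts and the ribosomal proteins 3.33%, 3.45% and 3.93%. With FK866 alone the shares were 1.11%, 1.23% and 1.02% for members and 3.54%, 4.01% and 3.16% for ribosomal proteins. With FK866 and NR both were lower, at 0.908%, 0.964% and 0.969% and at 2.71%, 2.91% and 2.88%. The part that this shared variation between libraries has in the calls was not tested.

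With FK866 alone, 13 of 80 members fell and 3 rose against untreated cells at an adjusted p-value under 0.05, while 24.8% of all genes were called and 12.6% were called lower, and the median log2 fold change was -0.13. DESeq2 called 19 members. The members lower with the largest changes and at least 50 counts were Cox7a1 (-0.65), Ndufv3 (-0.40, adjusted p = 0.00157) and Ndufc1 (-0.40, adjusted p = 0.0225), and the 3 that rose were Ndufs1 (0.15, adjusted p = 0.0453), Cox7a2l (0.35, adjusted p = 0.00895) and Cox6a2 (1.09, adjusted p = 0.0165). Fallen members numbered 31 without FK866 library 2 and 7 without FK866 library 3 or untreated library 3, and 8 without FK866 library 1. The number of all genes called in each of these fits is not given here.

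By the stricter rule, which 4.59% of all genes passed, Cox7a1 was the member called with FK866. This muscle isoform measured 4.27, 4.18 and 3.74 CPM untreated and 2.45, 2.96 and 2.36 CPM with FK866 (-0.65, SE 0.16, adjusted p = 0.00946, edgeR). It was also low with NR added, at 3.29, 2.62 and 2.83 CPM, and with Ex527, at 3.1, 2.52 and 2.8 CPM. All 9 treated libraries thus lay below the 3 untreated ones, though the call at the stricter rule was lost without any 1 of 5 of the 6 libraries compared. With no filter on low counts it was lost too, and Ndufa12 was called in its place, higher with FK866 (0.60, adjusted p = 0.00456, edgeR).

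Adding NR to FK866 lowered 29 of 80 members and raised 0, while 28.9% of all genes were called and 15% were called lower, and the median was -0.22. DESeq2 called 31 members. By complex, 12 of 37, 2 of 4, 6 of 9, 5 of 13 and 4 of 17 members of complexes I to V fell. The members with the largest falls and at least 50 counts were Cox7a2l, Uqcrq (-0.55, SE 0.11, adjusted p = 0.00165) and Ndufs7, a core subunit of complex I (-0.55, SE 0.10, adjusted p = 0.000806). Fallen members numbered 10 without FK866 library 2, 13 without FK866 and NR library 1 and 53 without FK866 library 3. How many of all genes were called in each of these fits is not given here, so the swings cannot be read as particular to the members.

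Cox7a2l, whose product takes part in joining complexes III and IV, passed the stricter rule here together with Cox6a2, as did 4.81% of all genes. It measured 58.2, 64.3 and 68.0 CPM untreated, 78.5, 94.2 and 70.8 CPM with FK866, 50.6, 51.1 and 48.8 CPM with FK866 and NR, and 58.8, 56.5 and 59.2 CPM with Ex527 added. All FK866 libraries were above all others, and all libraries with FK866 and NR were below all others. The fall with NR was -0.69 (SE 0.09, adjusted p = 5.99e-05, edgeR), and with Ex527 added the level was still lower than with FK866 alone (-0.48, SE 0.09, adjusted p = 0.00296). Its change from FK866 to FK866 and NR without FK866 library 2 was -0.56, just under the fold required.

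Cox6a2, the muscle isoform that leads its pair in hearts, was likewise highest with FK866 alone, at a far lower level. It measured 0.479, 0.588 and 0.669 CPM untreated, 1.16, 1.33 and 1.22 CPM with FK866, 0.325, 0.262 and 0.565 CPM with FK866 and NR, and 0.775, 0.687 and 0.683 CPM with Ex527 added. The FK866 libraries were above all others, the libraries with FK866 and NR overlapped the untreated ones, and each value rested on 6 to 31 counts. The change with NR was -1.64 (SE 0.32, adjusted p = 0.00173, edgeR), and without FK866 and NR library 2 its adjusted p-value was 0.0117.

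**Figure D3:**
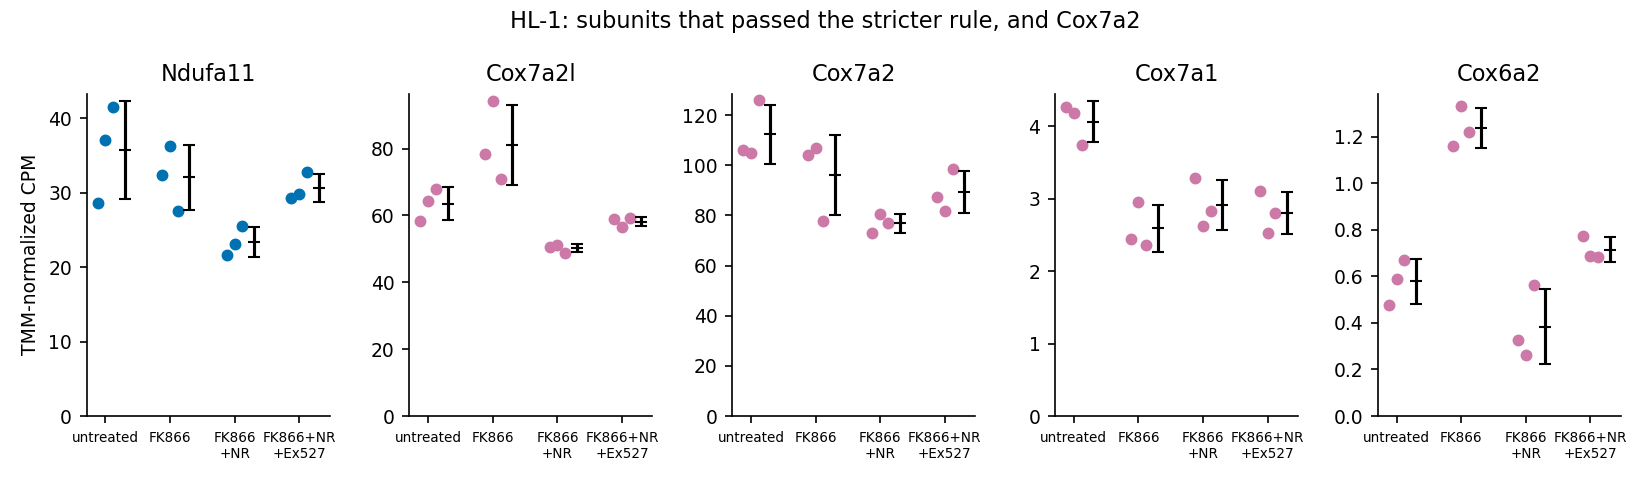
CPM (vertical axes, from 0) of the 4 members that passed the stricter rule in an HL-1 comparison and of Cox7a2, in the 3 libraries of each group (points) with mean and SD in black. Cox7a2l and Cox6a2 are highest with FK866 alone, and Cox7a1 is lower in all 9 treated libraries than in the untreated ones.

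Ex527 added to FK866 and NR gave few calls. By the stricter rule 0 members were called by edgeR and 0 by DESeq2, while 0.596% of all genes were called by edgeR. At an unadjusted p-value under 0.05 (edgeR) there were 29 members, and the share of all genes at that limit is not given here. At an adjusted p-value under 0.05, 4 of 80 rose, while 7.17% of all genes were called. These were Uqcrq (0.48, SE 0.11, adjusted p = 0.0164), Ndufv1 (0.32, SE 0.08, adjusted p = 0.0229), Cyc1 (0.32, SE 0.08, adjusted p = 0.0245) and Ndufb7 (0.33, SE 0.09, adjusted p = 0.0482). For each of them the Ex527 libraries lay above all libraries with FK866 and NR, as in Uqcrq with 134, 125 and 135 CPM. DESeq2 called 8 members. The groups did not overlap, higher with Ex527, for 39 of 80 members, against 18.1% of all genes, and the median was 0.13.

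Against FK866 alone, the 3 agents together called 0 members by the stricter rule in edgeR and in DESeq2, while 1.27% of all genes passed in edgeR. At an unadjusted p-value under 0.05 (edgeR) there were 12 members, again without the share of all genes at that limit. At an adjusted p-value under 0.05, Cox7a2l and Ndufs1 were lower (Ndufs1 -0.19, SE 0.05, adjusted p = 0.0291), which is 2 of 80 beside 12.2% of all genes, and the median was -0.07. Ndufs1 measured 229, 223 and 226 CPM with FK866 and 199, 188 and 208 CPM with all 3 agents. Its level was thus higher with FK866 alone than in any library of the other 3 groups. Comparisons that share a group are not independent of each other.

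The promoters of the members, whether or not they fell in HL-1, were searched for motifs of factors known to act on such genes. RefSeq windows from 250 bases before to 50 after the gene start (GRCm38.p6) were found for 69 members by symbol, 75 windows in all. The same Atp5o window is in that total for both genes of this name. Members whose windows were not analysed here included Atp5a1, Atp5mpl, Cox4i1, Cox4i2, Cox6a2, Cox6c, Cox6c2, Cox8c, Cyc1, Ndufa11b, Ndufa2, Ndufa4l2, Ndufb9, Ndufs1, Ndufs6b, Sdhc, Uqcrb, Uqcrc2 and Uqcrq. CGCATGCG, the core of the NRF1 motif, was in 12.0% of the member windows and in 1.87% of all 32851 windows. The ETS or GABPA motif CCGGAAG was in 22.7% and 8.86%, the YY1 motif AAGATGGC in 13.3% and 2.75%, the motif AAGGTCA of the estrogen-related receptors in 10.7% and 4.72%, and the E-box CACGTG, which the clock activators bind, in 9.3% and 7.15%. Both strands were searched and no 2 of these motifs contain each other. A match describes the letters of a window and not a bound site. The windows of all genes were not matched to those of the members in base composition, and some members have several windows. A link between these motifs and the falls in HL-1 was not tested.

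The windows of 3 members that passed the stricter rule in HL-1 and of Cox6a1, the ubiquitous partner of Cox6a2, are given 5′ to 3′ on the strand of the gene, with the motif letters in capitals. The Ndufa11 window (chr17:56717512-56717811, plus strand) holds the NRF1 core from position -59, and the Cox6a1 window (chr5:115348909-115349208, minus strand) holds it from position -161 and the ETS motif from position -16. The windows of Cox7a2l (chr17:83514284-83514583, minus strand) and Cox7a1 (chr7:30183921-30184220, plus strand) hold no match to these letters, in lower case throughout.
Ndufa11: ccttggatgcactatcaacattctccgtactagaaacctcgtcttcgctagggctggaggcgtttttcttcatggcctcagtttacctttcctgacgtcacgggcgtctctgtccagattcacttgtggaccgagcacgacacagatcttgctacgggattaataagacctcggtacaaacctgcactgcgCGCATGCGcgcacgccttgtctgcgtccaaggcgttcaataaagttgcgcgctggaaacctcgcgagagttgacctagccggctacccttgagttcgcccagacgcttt
Cox6a1: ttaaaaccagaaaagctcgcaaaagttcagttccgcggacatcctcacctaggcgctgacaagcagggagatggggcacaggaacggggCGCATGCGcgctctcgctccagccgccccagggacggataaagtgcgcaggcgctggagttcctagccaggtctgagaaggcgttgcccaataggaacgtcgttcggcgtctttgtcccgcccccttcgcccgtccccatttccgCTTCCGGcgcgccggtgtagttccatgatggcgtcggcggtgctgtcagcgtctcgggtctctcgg
Cox7a2l: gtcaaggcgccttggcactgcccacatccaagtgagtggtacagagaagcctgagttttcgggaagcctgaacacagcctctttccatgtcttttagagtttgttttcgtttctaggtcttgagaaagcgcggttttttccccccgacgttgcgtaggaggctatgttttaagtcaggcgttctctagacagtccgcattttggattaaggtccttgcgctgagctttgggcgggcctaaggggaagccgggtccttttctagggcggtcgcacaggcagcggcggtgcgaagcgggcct
Cox7a1: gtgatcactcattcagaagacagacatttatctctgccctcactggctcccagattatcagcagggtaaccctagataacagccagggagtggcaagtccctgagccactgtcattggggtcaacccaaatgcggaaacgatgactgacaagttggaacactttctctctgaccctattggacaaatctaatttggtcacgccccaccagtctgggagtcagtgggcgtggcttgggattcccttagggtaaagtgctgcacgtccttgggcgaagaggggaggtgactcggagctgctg

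In hearts almost no member was called by time of day, age or NR. The members' counts rose by a median of only 0.49 on the log2 scale per doubling of the library total, as described below. The part of this in the lack of calls was not tested. The time comparisons called 0 of 84 members in young, in old H2O and in old NR hearts, while 14.4%, 4.2% and 5.37% of all 15443 genes were called (edgeR, adjusted p-value under 0.05). At an unadjusted p-value under 0.05 there were 0, 1 and 1 members, namely Ndufb3 in old H2O and Cox4i2 in old NR hearts, and DESeq2 called 0 in each. The medians of the members were 0.06, 0.15 and -0.02 for ZT10 over ZT22. Over the alternatives, each heart left out included, they ran from -0.01 to 0.13, from 0.03 to 0.32 and from -0.12 to 0.14. The young median was negative without young ZT22 heart 2, and the old NR median was positive without old NR ZT22 heart 1 (0.14) or old NR ZT10 heart 2 (0.06).

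Old H2O against young hearts gave 1 call of 84 at ZT10 and 0 at ZT22, while 5.87% and 14.1% of all genes were called. Cox6b2, the testis isoform of a complex IV subunit, measured 6.29, 8.8 and 6.89 CPM in young and 3.72, 4.92 and 3.91 CPM in old H2O hearts at ZT10. The 3 old hearts lay below the 3 young ones (-0.80, SE 0.22, adjusted p = 0.035, edgeR), but DESeq2 gave an adjusted p-value of 0.096, and the call was lost without any 1 of 4 of the 6 hearts. At ZT22 it measured 6.5, 4.98 and 5.36 CPM in young and 3.73, 3.7 and 4.93 CPM in old H2O hearts (-0.40, SE 0.23, adjusted p = 0.262), and the age by time term did not pass (-0.40, SE 0.32, adjusted p = 0.513). The ubiquitous Cox6b1 held 95.8% ± 1.13 of the pair per length, so that this change concerns a minor isoform.

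At ZT22 all 84 members had a negative estimate for age with a median of -0.13, though 0 had an unadjusted p-value under 0.05 and DESeq2 called 0. The median was 0.01 and 38 members were negative without old H2O ZT22 heart 3, which had the highest total of all hearts. Without old H2O ZT22 heart 1, which had the lowest total of all hearts, 1 member was called, the complex I subunit gene Ndufb11 (-0.36, adjusted p = 0.0354). The age by time term called 0 members in edgeR and in DESeq2, with 0 at an unadjusted p-value under 0.05 and a median of 0.10, while 6.89% of all genes were called. That median was -0.03 without old H2O ZT22 heart 3. At ZT10 the median for age was -0.02, and it was 0.03 without old H2O ZT10 heart 2 and 0.01 without young ZT10 heart 3.

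NR in old hearts called 0 of 84 members at ZT10, at ZT22 and in the NR by time term, by edgeR and by DESeq2, while 0.285%, 0.35% and 0.343% of all genes were called. At such shares 0 of 84 does not set the members apart from all genes. At an unadjusted p-value under 0.05 there were 0, 0 and 1 members. The medians were -0.16, 0.02 and -0.18, and 80 of 84 members had a negative estimate at ZT10. Without old NR ZT10 heart 2 the median at ZT10 was -0.08. At ZT22 it ran from -0.14 without old NR ZT22 heart 1 to 0.18 without old H2O ZT22 heart 1, and the NR by time median was -0.02 without old NR ZT22 heart 1 and -0.05 without old H2O ZT22 heart 3. At ZT10 the 5 atrial markers summed to 388 to 505 CPM in old H2O and 112 to 130 CPM in old NR hearts, without overlap. Their sum also varied widely without NR, from 154 to 744 CPM in young hearts at ZT10. At ZT22 it ran from 123 to 530 CPM in old H2O and from 160 to 225 CPM in old NR hearts. The 8 cardiomyocyte markers summed at ZT10 to 6080 to 7030 CPM in old H2O and 5200 to 6110 CPM in old NR hearts. The part of both marker lists in the members' estimates was not tested. Atp5b measured 670, 565 and 654 CPM in old H2O and 584, 477 and 574 CPM in old NR hearts at ZT10, and 786, 531 and 441 CPM and 749, 464 and 486 CPM at ZT22. The groups overlapped at both times, and the spread between hearts of 1 group at ZT22 was larger than the difference between groups.

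Of the regulators of mitochondrial biogenesis, Ppargc1b, a coactivator of these genes, was called in several heart comparisons. It was lower at ZT10 than at ZT22 in old H2O hearts (-0.48, adjusted p = 0.0167), higher in old H2O than in young hearts at ZT22 (0.46, adjusted p = 0.0101) and lower with NR at ZT22 (-0.58, adjusted p = 0.0248). Its NR by time term was 0.80 (SE 0.16, adjusted p = 0.0258). These comparisons share the old H2O hearts at ZT22. None of the 84 members was called in any of these 4 comparisons.

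The members' counts in hearts followed the depth of the library. They held 1.48% of counts in the heart with the lowest total (old H2O ZT22 heart 1) and 1.07% in that with the highest (old H2O ZT22 heart 3), and in all 6 groups the deepest library had the lowest share. Between these hearts the total differed 1.93-fold and the summed member counts 1.4-fold. The cytosolic ribosomal proteins moved the same way, from 0.614% to 0.483%. The shallowest library had the highest member share in 4 of the 6 groups.

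**Figure D4:**
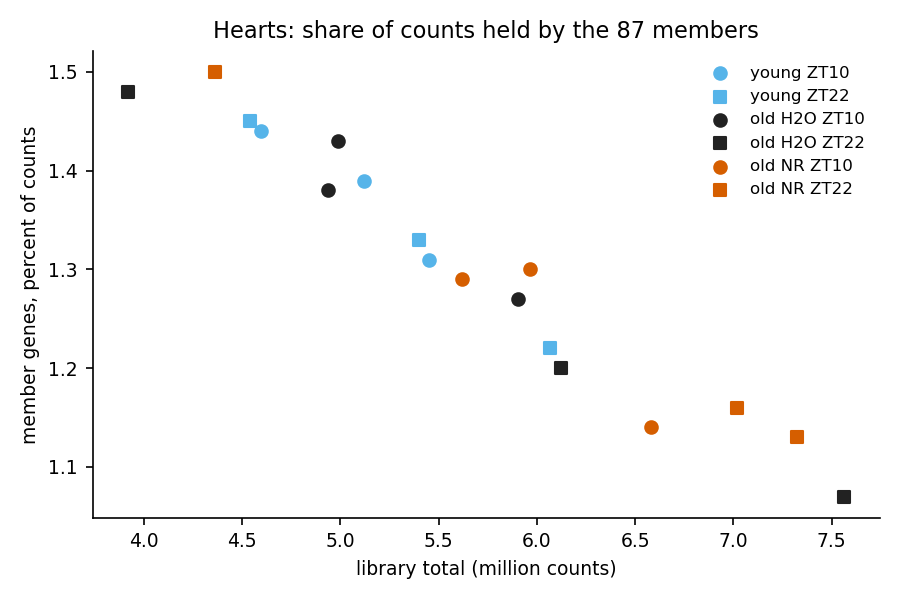
Percent of counts held by the 87 members (vertical axis, which does not start at 0) against the total of each of the 18 heart libraries (horizontal axis), with colour for the group of mice and shape for the time. The share is 1.48% in the shallowest library and 1.07% in the deepest, both old H2O at ZT22, and the highest is 1.5% in old NR ZT22 heart 1. The deepest library had the lowest share in all 6 groups, and the shallowest the highest in 4.

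The slope of this relation also differed with how densely a transcript was covered. Members had a median of 0.864 counts per base of their principal transcript, with Atp5b at 1.71 and Cox7a1 at 1.42, while the other 15359 genes tested had a median of 0.0607. For each doubling of the library total the count of other genes rose by a median of 1.34 on the log2 scale where they had at most 0.05 counts per base, and by 0.49 where they had over 1, while members rose by a median of 0.49, with 0.22 for Atp5b and 1.5 for Atp5l. At like density the members lay below the other genes in all 6 ranges of density, of which the lowest pair held 2 members each, with medians of 0.51 against 0.75 at 0.5 to 1 counts per base (34 members), 0.61 against 0.94 at 0.25 to 0.5 (9 members) and 0.4 against 0.49 over 1 (31 members). What sets these slopes was not tested. Of the 84 tested, 78 members had a slope under 0.8.

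**Figure D5:**
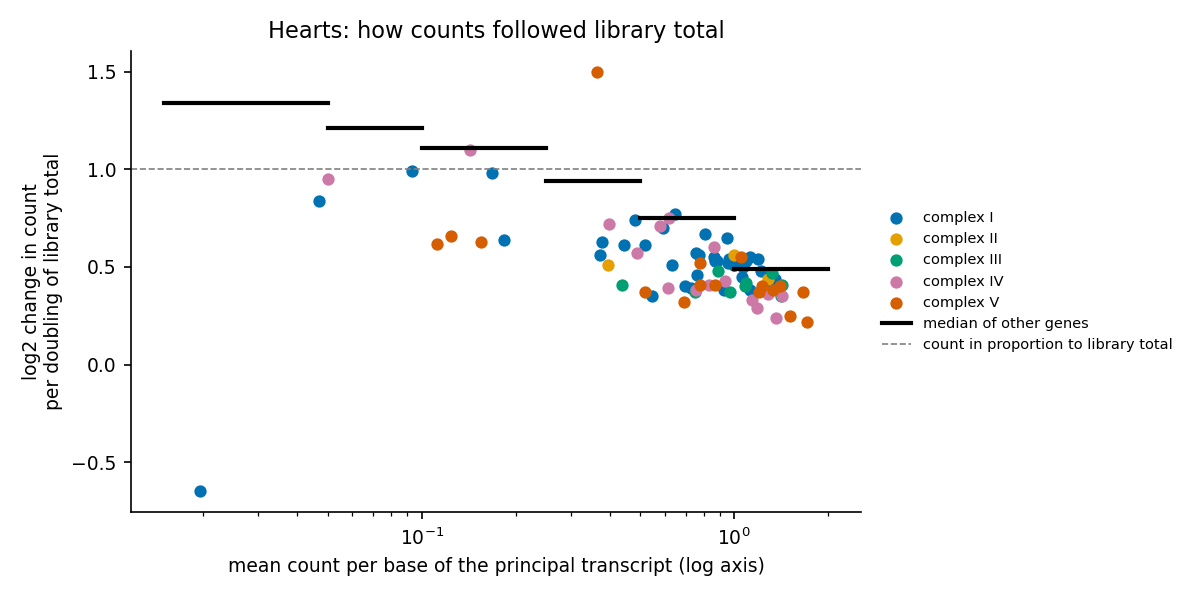
Log2 change in count per doubling of the library total over 18 hearts (vertical axis) for the 84 tested members (points, coloured by complex) against their mean count per base (log axis), with the median of the other genes in each range of density as black bars. Other genes fall from 1.34 to 0.49 as density rises, and most members lie at high density, with medians below those of other genes of like density (0.51 against 0.75 at 0.5 to 1 counts per base).

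With log2 library total as a covariate, an alternative chosen after these values were seen, the heart medians were 0.01, 0.08 and -0.03 for time in young, old H2O and old NR hearts, 0.02 and -0.06 for age at ZT10 and ZT22, 0.07 for age by time, -0.04 and 0.08 for NR at ZT10 and ZT22 and -0.11 for NR by time. They were thus nearer to 0 than without it in 6 of the 9 comparisons. The 6 members with slopes of 0.8 or more were Atp5l, Cox4i2, Ndufb4, Ndufa4l2, Cox6b2 and Ndufb2. Among them Ndufa4l2, which is known to rise at low oxygen, and Cox4i2 showed no call in any heart comparison. In HL-1 the members had a median of 2.41 counts per base and up to 29.3, above the range of hearts, and the covariate left 61 members lower with FK866 and NR than untreated.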

How the data were processed

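RNA was sequenced from 18 mouse hearts and 12 HL-1 cultures. For hearts, the authors trimmed single-end reads with Trimmomatic 0.39, aligned them with STAR 2.7.10a to mm10, removed duplicates with Picard 3.0.0 and reads that were multi-mapping, ribosomal or mitochondrial, and deposited whole counts per gene from featureCounts 2.0.4. A second deposited heart table holds a score, counts divided by DESeq2 1.36.0 size factors and rounded, and served here only for gene symbols. The names of these tables are swapped, which was read from their totals. For HL-1 the authors deposited counts and FPKM per gene. HISAT2 is among the tools in the submitters' processing notes, and the counter and build are not given in the sources used here.

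Counts were tested with edgeR 4.0.16 (quasi-likelihood test, TMM, R 4.3.3) over all groups of a table, and p-values were adjusted over all genes tested. Hearts required an average count over 5 and an adjusted p-value under 0.05. HL-1 used filterByExpr with an adjusted p-value under 0.01 and over 1.5-fold, and a second rule of 0.05 with no minimum change. On simulated data the fit recovered 198 of 200 genes changed 2-fold with 12 false calls (young hearts by time, 15324 genes) and 184 of 200 with 0 false calls (FK866 against untreated, 14547 genes). The changed genes were drawn from those with an average count over 50. Simulated counts followed library size in proportion, unlike those of most members in hearts. The recovery therefore does not measure how well the mostly smaller changes of the members were found. DESeq2 1.42.0, other filters and scaling, a replicate block, fits on the groups compared and leaving out each library were alternatives, and log2 library total as a covariate was added after seeing the data. Named genes were anchors of each complex, isoform sets, members called by the main rules and the largest changes among members with at least 50 counts. The members and lists were chosen with earlier results of these data known. Wells of 1 line measure the spread between cultures.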

Additional observations from a re-analysis of the deposited data

How the results depend on the processing

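With no filter on low counts, the 1 member called by the stricter rule for FK866 against untreated turned from lower (Cox7a1) to higher (Ndufa12). The medians of the members changed sign with 1 library left out in 6 of 9 heart comparisons (time in young and in old NR hearts, age at ZT10 and at ZT22, age by time, NR at ZT22) and in 1 of 5 in HL-1 (3 agents against FK866, -0.07 to 0.02). For age at ZT10 DESeq2 called 0 members, and leaving out 1 heart gave 0 to 1, as it did for age at ZT22. By the stricter HL-1 rule, FK866 against untreated gave 0 members with the replicate block, the covariate or only the groups compared, and 0 to 1 with 1 library left out. FK866 and NR against untreated gave 0 with an average count over 5, the block, the covariate or only the groups compared, and 0 to 4 with 1 library left out. FK866 and NR against FK866 gave 1 to 4 with 1 library left out, and the 3 agents against FK866 gave 1 with no filter on low counts. The rule of 0.05 with no minimum change gave 16, 29, 65, 4 and 2 members in the comparisons of FK866 with untreated, FK866 and NR with FK866, FK866 and NR with untreated, Ex527 added, and 3 agents with FK866. Under that rule, fallen members with FK866 numbered 6 with only the groups compared and 7 to 31 with 1 library left out, those of FK866 and NR against FK866 10 to 53, and those of FK866 and NR against untreated 5 to 67. Members higher with Ex527 numbered 8 with DESeq2, 14 with no filter, 0 with the covariate, 27 with only the groups compared and 0 to 3 with 1 library left out. These member counts stand without the counts of all genes in the same fits, and so do not show moves particular to the members. The cause of these moves was not tested. Where a library was left out, having fewer samples and losing that particular library cannot be told apart.

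Equal replicate numbers did not pair the samples (correlations of deviations from -0.292 to 0.163). The replicate block gave 59 fallen members for FK866 and NR against untreated and 24 against FK866. Heart members of low count, such as Ndufs6b with a mean of 6.78 counts, allow no firm statement.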
